A study of Mus musculus with 11 samples.

Results

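Interferon response and major histocompatibility complex (MHC) class I genes were followed in aTC1-6, a mouse line of immortalised pancreatic alpha cells that make glucagon, after knockdown of Mettl3 or Mettl14. The set held 44 genes, chosen by symbol, of the 53947 rows of the deposited gene table. Of these, 28 passed a filter on low counts and were tested, and 16 did not pass it. Mettl3 and Mettl14 encode the 2 core subunits of the nuclear methyltransferase that places N6-methyladenosine (m6A) on mRNA, of which the METTL3 protein is the catalytic one and METTL14 its RNA-binding partner. There were 4 libraries of cells with Mettl3 knockdown (Mettl3 KD), 4 with Mettl14 knockdown (Mettl14 KD) and 3 with a scramble control, all collected 72 h after knockdown. All 3 groups went through the same transfection of the same unmodified line, which is clonal and derives from a pancreatic tumour of a transgenic mouse. No interferon or virus is named in the labels.

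Cells that meet viral RNA sense it through receptors such as MDA5 and RIG-I, which signal through the mitochondrial adaptor MAVS to make type I interferon. Interferon binds its receptor on the same or neighbouring cells and, through STAT2 with IRF9, induces antiviral genes that carry an interferon-stimulated response element (ISRE) in their promoters. The same signals raise MHC class I, which shows peptides cut by the immunoproteasome and carried by the TAP transporter to CD8+ T cells. In islets, interferon signalling and high class I are known features of autoimmune diabetes. In other cell types, loss of m6A is known to let endogenous RNA trigger these sensors, so the question here was how the pathway stood in alpha cells with either writer subunit lowered.

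Promoter sequences from RefSeq (build GRCm38.p6) were matched for 34 of the 44 genes, giving 41 windows of 300 bases, from 250 before to 50 after a transcript start. The core of the ISRE was searched as GAAANNGAAA on both strands, with overlapping matches counted. It was present in 16 of the 41 windows of the set (39%), against 3.44% of all 32851 windows in the table. It was in 8 of the 10 windows of genes that did not pass the low-count filter, and in 8 of the 31 windows of genes that did. The GAS motif of interferon gamma signalling, searched as TTCNNNGAA on both strands, was in 8 of the 41 windows (19.5%) and in 8.3% of all windows. The motif GGGANTTTCC, a form of the NF-kB site, was in 1 window of the set, that of B2m, and in 0.411% of all windows. These matches describe the letters of the windows and do not show binding. Other forms of the 3 motifs were not searched, so a window without a match can still hold such an element.

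The 250 bases before the start are shown for 4 genes on which the results below turn, 5′ to 3′ on the gene's own strand, with ISRE core matches in capitals. Isg15, a ubiquitin-like protein, stands for the genes near 0 counts and has 3 overlapping matches, the first at base 173 of the window. B2m, the light chain of every class I molecule, has 1 match, at base 112. H2-K1, a classical class I heavy chain, and Mavs have no match to GAAANNGAAA in these windows. Variant forms of the ISRE, which this strict pattern misses, were not searched.
Isg15, chr4:156200819-156201068, minus strand: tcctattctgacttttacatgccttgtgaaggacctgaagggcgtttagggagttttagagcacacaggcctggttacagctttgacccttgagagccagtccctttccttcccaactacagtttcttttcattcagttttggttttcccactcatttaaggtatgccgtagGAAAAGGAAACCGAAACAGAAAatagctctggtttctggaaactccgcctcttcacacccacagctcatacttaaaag
B2m, chr2:122147437-122147686, plus strand: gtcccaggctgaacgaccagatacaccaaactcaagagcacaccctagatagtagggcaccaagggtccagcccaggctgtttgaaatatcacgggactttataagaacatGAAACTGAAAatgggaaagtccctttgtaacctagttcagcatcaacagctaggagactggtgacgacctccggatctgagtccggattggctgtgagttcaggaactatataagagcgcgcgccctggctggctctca
H2-K1, chr17:34000348-34000597, minus strand: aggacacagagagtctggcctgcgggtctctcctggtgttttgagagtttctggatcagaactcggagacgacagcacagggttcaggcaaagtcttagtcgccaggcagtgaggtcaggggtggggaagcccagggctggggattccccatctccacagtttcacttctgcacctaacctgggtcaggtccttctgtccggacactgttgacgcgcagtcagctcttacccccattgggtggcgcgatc
Mavs, chr2:131233813-131234062, plus strand: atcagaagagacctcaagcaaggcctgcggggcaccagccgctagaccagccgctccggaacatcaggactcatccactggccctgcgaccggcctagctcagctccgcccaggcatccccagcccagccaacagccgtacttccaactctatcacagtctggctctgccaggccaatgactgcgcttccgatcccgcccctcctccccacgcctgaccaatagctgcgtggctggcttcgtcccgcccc

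Library totals ran from 19576632 to 22406527 estimated counts, and levels below are CPM, counts divided by the library total and scaled with edgeR's TMM factors. Mettl3 was at 5.34 ± 0.449 CPM in Mettl3 KD, 15.4 ± 1.02 in Mettl14 KD and 14.9 ± 1.02 in scramble, and Mettl14 at 14.7 ± 0.720 CPM in Mettl14 KD, 29.3 ± 1.02 in Mettl3 KD and 25.2 ± 1.70 in scramble (SD, n = 4, 4 and 3). Summed alpha cell markers, led by Gcg and Pcsk2, reached 39458 to 51005 CPM in the 11 libraries, so they were abundant in each. The sums were 43679 to 45508 CPM in Mettl3 KD and 48696 to 51005 in Mettl14 KD. In scramble replicates 1 and 3 they were 47727 and 47905 CPM, and replicate 2 was lowest. Without it, 3 of the 16 markers were called higher and 7 lower in Mettl3 KD, and 4 and 2 in Mettl14 KD. These shares of 62.5% and 37.5% stand beside 30.3% and 19.5% of all genes. Scramble replicate 2 stood apart. The 18 lung and blood markers summed to 148.8 CPM there and to 4.01 to 8.42 CPM in the other 10 libraries, with Sftpc (35.4 CPM) and Scgb1a1 (33.5 CPM) the most abundant. Markers of class II antigen-presenting cells summed to 24.9 CPM there, against 3.26 to 4.10 CPM in the other 10, with Cd74 (8.70 CPM) and H2-Aa (4.30 CPM) the most abundant. Endothelial and mesenchymal markers, led by Col1a2 and Col3a1, summed to 32.9 CPM there; elsewhere they summed to 10.5 to 16.8 CPM in Mettl3 KD, 6.71 to 9.78 in Mettl14 KD, and 7.76 and 8.34 in scramble, and their part in the results was not tested. Comparisons are therefore given with and without that library, and a value with no fit named comes from all 11 libraries. In bulk libraries, fewer cells of a type and less RNA per cell cannot be told apart.

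Scramble replicate 2 was also the highest library for 35 of the 44 genes, including all 16 that did not pass the filter. It exceeded the highest of the other 10 libraries more than 2-fold for 18 of the 44 genes and more than 5-fold for 10. The same counts were not made over all genes, so they are not shown to be particular to the set. Over the tested genes that library also differed from scramble replicates 1 and 3, with a chi-square per degree of freedom of 14.9 and 13.3. Between replicates 1 and 3 it was 2.93. These high values moved with the lung, blood and class II markers of that library, and the part of those markers in them was not tested. The plot of all 44 genes by library shows the open diamonds of that library far to the right for most genes that did not pass the filter. Of these 16, 15 were more than 2-fold above the highest other library. The diamonds were level with the other libraries for Adar, Eif2ak2 and Mavs, and also for the induced genes Usp18 and Ifi35. Other induced genes that passed the filter were high in that library. Irf7 was at 5.20 CPM there and at most 1.25 in the other 10 libraries, Ifit3 at 5.05 and 0.849, and Rsad2 at 2.05 and 0.942. Ifit2, Bst2 and Xaf1 were also highest there.

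**Figure D1:**
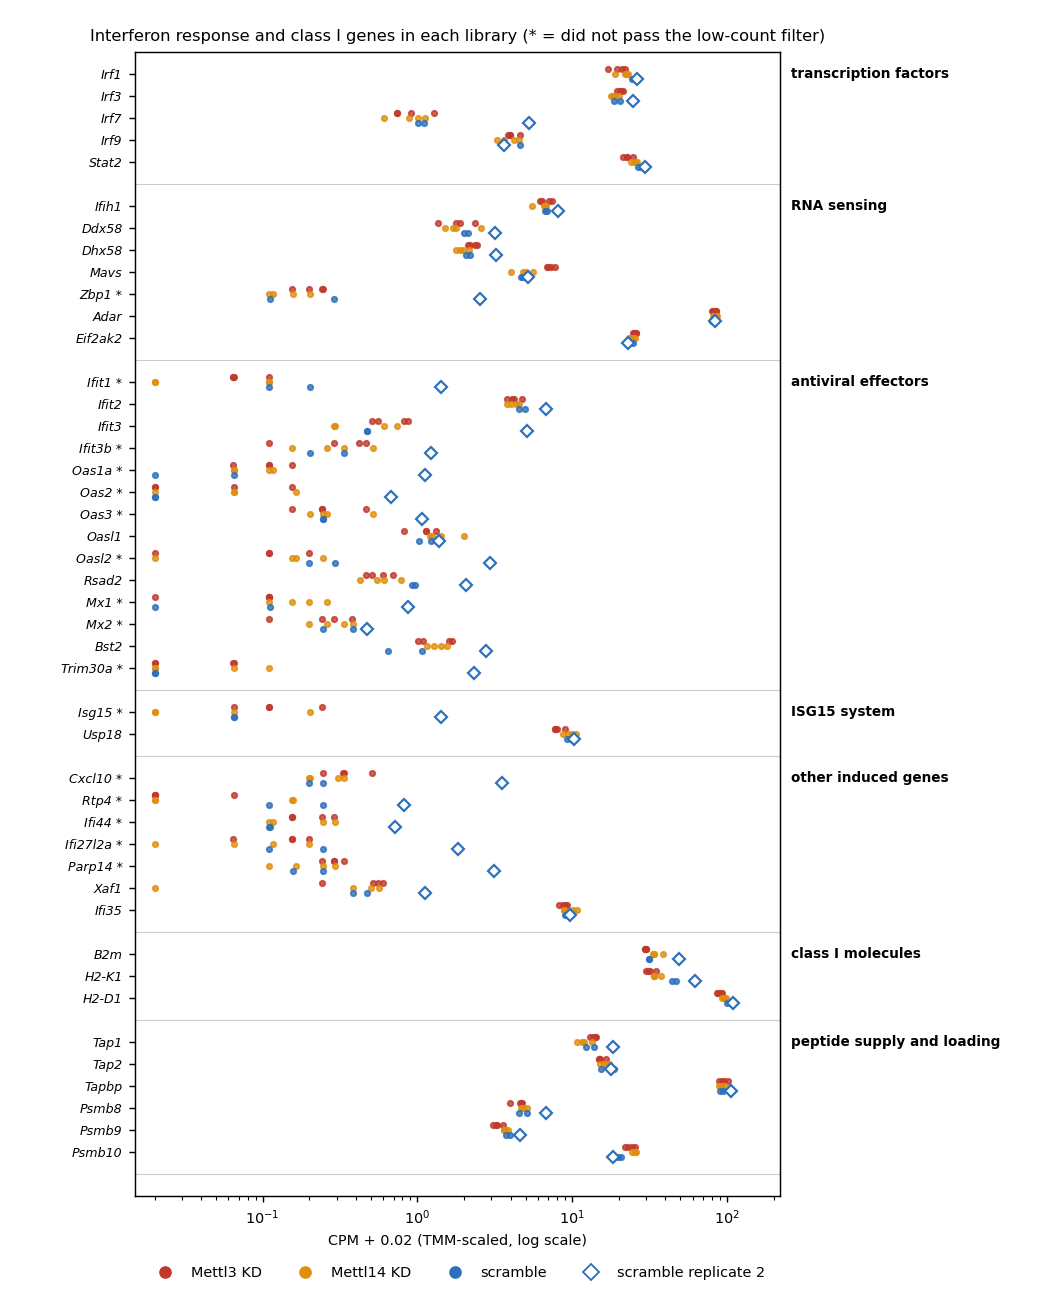
Level of each of the 44 genes in each library, as CPM + 0.02 on a log scale, with genes grouped by role. Each point is 1 library of Mettl3 KD (n = 4), Mettl14 KD (n = 4) or scramble (n = 3), and the open diamond is scramble replicate 2. An asterisk marks the 16 genes that did not pass the low-count filter.

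The 16 genes that did not pass the filter, most of them interferon-induced, had few counts outside scramble replicate 2. Some induced genes had more counts in the same 10 libraries, with 172 to 233 of Usp18, 184 to 237 of Ifi35 and 83 to 110 of Ifit2. Others that passed the filter were low there as well. These had 18 to 44 counts (Oasl1), 14 to 37 (Bst2), 13 to 28 (Irf7), 9 to 21 (Rsad2), 6 to 19 (Ifit3) and 0 to 13 (Xaf1). The 16 genes below the filter were the sensor Zbp1; the antiviral effectors Ifit1, Ifit3b, Oas1a, Oas2, Oas3, Oasl2, Mx1, Mx2 and Trim30a; Isg15; and Cxcl10, Rtp4, Ifi44, Ifi27l2a and Parp14. Together they held 42 to 60 counts per Mettl3 KD library (1.88 to 2.68 CPM), 43 to 59 per Mettl14 KD library (1.94 to 2.67 CPM) and 46 and 52 in scramble replicates 1 and 3 (2.06 and 2.36 CPM). Scramble replicate 2 held 514 counts of them (25.7 CPM). Outside that library the summed levels of the 3 groups overlapped, with 3 Mettl3 KD and 2 Mettl14 KD libraries above both remaining scramble libraries.

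Isg15 had 1, 2, 5 and 2 counts in Mettl3 KD, 4, 0, 0 and 1 in Mettl14 KD, and 1, 28 and 1 in scramble replicates 1 to 3. Cxcl10, a chemokine that draws T cells, had 7, 5, 7 and 11 counts in Mettl3 KD, 4, 6, 4 and 7 in Mettl14 KD, and 5, 70 and 4 in scramble. Parp14, an interferon-induced ADP-ribosyltransferase, had 6, 7, 6 and 5 counts in Mettl3 KD, 2, 3, 5 and 6 in Mettl14 KD, and 3, 62 and 5 in scramble. In each case scramble replicate 2 alone was high. None of these 16 genes was tested in the fits with the low-count filter, and no fold is drawn from them. Oas1a and Ifit3b also share 68.8% and 55.3% of their 31-base words with other genes of the reference transcripts, mainly Oas1g and Ifit3, so their counts are uncertain.

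No transcript of interferon itself was measurable. Of 13 interferon genes listed, 11 were at 0 in all 11 libraries and the highest had 3 counts in a library. A count of 0 allows up to 3 counts, which is 0.134 to 0.153 CPM of the library totals without TMM factors, and covers counting error only.

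Per kilobase of the longest reference transcript, and averaged over the 10 libraries without scramble replicate 2, the class I machinery led the set. H2-D1 was at 45.0 CPM per kb, B2m at 37.4, the peptide editor Tapbp at 32.3, H2-K1 at 19.0 and the immunoproteasome subunit Psmb10 at 18.04. The RNA editor Adar followed at 13.97, the transcription factors Irf1 and Irf3 at 10.1 and 9.65, and Mavs stood at 1.88. Irf7, which amplifies the response after interferon, was at 0.284, and Rsad2 at 0.151. This order is approximate, because nothing used here says if the authors adjusted counts for length.

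Against scramble, 2 of the 28 tested genes were higher and 8 lower in Mettl3 KD (edgeR quasi-likelihood F-test, Benjamini-Hochberg adjusted over all genes at 0.05). Of all 14133 genes tested, 15.5% were higher and 15.8% lower (31.3% called in either direction). The median log2 fold change of the 28 was -0.20, and that of all genes 0.00. When scramble replicate 2 was omitted, 2 genes were called higher and 4 lower, beside 15.3% and 15.1% of 14316 genes (30.3% in either direction), and the median of the 28 was -0.04. The higher genes were Mavs and Psmb10 in both fits. Irf1, Stat2, H2-K1 and H2-D1 were lower in both fits, while Ifit2, Rsad2, Usp18 and Psmb9 passed only with scramble replicate 2 included.

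In Mettl14 KD against scramble, 1 gene was higher and 5 lower, where 10.1% of all genes tested were higher and 10.8% lower (20.9% in either direction). The median of the 28 was -0.15, and that of all genes 0.00. With that library left out, 2 were higher and 2 lower, beside 9.34% and 10.1% of all genes (19.5% in either direction), with a median of -0.06. Psmb10 was higher and H2-K1 and H2-D1 lower in both fits. Irf1, Ifit2 and Rsad2 passed only with that library included, and B2m passed, in the higher direction, only without it. Both comparisons share the scramble libraries.

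**Figure D2:**
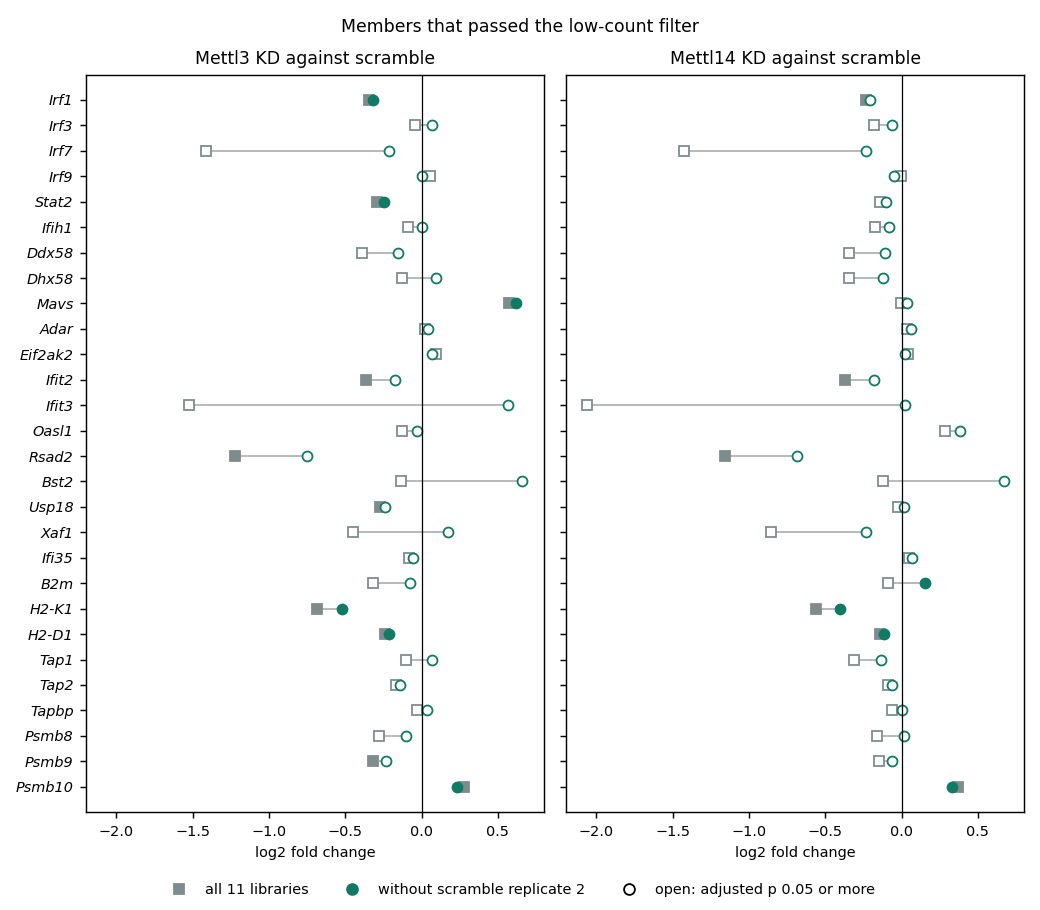
Log2 fold change of the 28 tested genes in Mettl3 KD (left) and Mettl14 KD (right) against scramble, from the fit of all 11 libraries (squares) and the fit without scramble replicate 2 (circles). Filled markers have an adjusted p under 0.05. Long lines, as for Ifit3, Irf7 and Rsad2, join values that 1 scramble library moved, while Mavs, Psmb10, H2-K1 and H2-D1 stayed filled in the same direction in Mettl3 KD.

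Among the 5 transcription factors, 2 (40%) were lower in Mettl3 KD in both fits. Beside these stand 15.8% of all genes, or 15.1% without scramble replicate 2. In Mettl14 KD 1 (20%) was lower, beside 10.8% of all genes, and 0 without scramble replicate 2. Irf1, which drives class I and immunoproteasome promoters, was at 20.9, 19.5, 17.1 and 21.9 CPM in Mettl3 KD, 22.2, 18.9, 22.9 and 21.9 in Mettl14 KD, and 25.3, 26.2 and 24.3 in scramble. Every knockdown library lay below every scramble library. The log2 fold change was -0.35 ± 0.07 in Mettl3 KD (SE; adjusted p = 0.00151, edgeR) and -0.32 without scramble replicate 2 (adjusted p = 0.00290). In Mettl14 KD it was -0.23 ± 0.07 (adjusted p = 0.0325), and -0.20 without that library (adjusted p = 0.0697), where it no longer passed; it was also lost without scramble replicate 1 (adjusted p = 0.0681) and without Mettl14 KD replicate 1, 2 or 4 (0.0517, 0.102 and 0.0592).

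Stat2, the partner of IRF9 in the type I interferon factor, was at 21.2, 22.7, 24.7 and 22.7 CPM in Mettl3 KD, 25.1, 26.2, 24.05 and 25.9 in Mettl14 KD, and 26.6, 29.7 and 27.7 in scramble. Neither knockdown group overlapped scramble, and all 8 knockdown libraries lay below it. In Mettl3 KD the log2 fold change was -0.29 ± 0.06 (adjusted p = 0.000576), and -0.25 without scramble replicate 2 (adjusted p = 0.00156). In Mettl14 KD it was -0.14 ± 0.06 and did not pass (adjusted p = 0.0770), nor without that library (-0.10, adjusted p = 0.263).

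The 3 other factors did not pass in any comparison. Irf7 was at 0.714 to 1.25 CPM in Mettl3 KD, 0.588 to 1.10 in Mettl14 KD, and 1.09, 5.20 and 0.987 in scramble. Its log2 fold change in Mettl3 KD was -1.41 ± 0.60 over the 11 libraries and -0.21 once scramble replicate 2 was omitted, so that 1 library set its size. Irf3, the factor that kinases activate downstream of the sensors, had log2 fold changes of -0.05 in Mettl3 KD and -0.18 in Mettl14 KD. Without scramble replicate 2 these were 0.07 and -0.06. Irf9 had 0.06 and -0.00, and 0.01 and -0.05 without that library.

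Among RNA sensors and their partners, Mavs rose in Mettl3 KD. Mavs joins MDA5 and RIG-I to the kinases that activate IRF3. It was at 7.30, 6.97, 7.77 and 6.86 CPM in Mettl3 KD, 4.98, 3.98, 4.77 and 5.56 in Mettl14 KD, and 4.76, 5.15 and 4.67 in scramble. All 4 Mettl3 KD libraries lay above all others, while Mettl14 KD and scramble overlapped. The mean in Mettl3 KD was 1.49 times that of scramble, with a log2 fold change of 0.57 ± 0.11 (adjusted p = 0.000309) and of 0.62 ± 0.12 without scramble replicate 2 (adjusted p = 7.65e-05). In Mettl14 KD the log2 fold change was -0.01 ± 0.11 (adjusted p = 0.980), and 0.04 ± 0.13 without that library. The reference transcript of Mavs shares none of its 31-base words with another gene.

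The other 5 tested genes of this group did not pass against scramble. They were Ifih1 (MDA5), Ddx58 (RIG-I), Dhx58 (LGP2), Adar, which edits double-stranded RNA, and Eif2ak2 (PKR), which halts translation when it binds such RNA. Their log2 fold changes lay between -0.39 (Ddx58) and 0.09 (Eif2ak2) in Mettl3 KD and between -0.35 (Dhx58 and Ddx58) and 0.04 (Eif2ak2 and Adar) in Mettl14 KD. Without scramble replicate 2 these ranges were -0.16 to 0.10 and -0.12 to 0.06, outside Mavs.

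Of 14 antiviral effectors, 5 passed the filter: Ifit2, Ifit3, Oasl1, Rsad2 and Bst2. Rsad2 (viperin), an enzyme that makes a chain-terminating nucleotide, was at 0.448, 0.670, 0.491 and 0.579 CPM in Mettl3 KD, 0.588, 0.528, 0.766 and 0.407 in Mettl14 KD, and 0.906, 2.05 and 0.942 in scramble. These are 9 to 17 counts per knockdown library, against 20, 41 and 21 counts in scramble, and the groups did not overlap. Its log2 fold change was -1.22 ± 0.31 in Mettl3 KD (adjusted p = 0.00459) and -1.16 ± 0.31 in Mettl14 KD (adjusted p = 0.0103). Without scramble replicate 2 the values were -0.75 (adjusted p = 0.0715) and -0.68 (adjusted p = 0.133), and neither passed.

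Ifit2, which binds AU-rich viral RNA, was at 4.21, 4.69, 3.75 and 4.05 CPM in Mettl3 KD, 3.76, 4.03, 4.503 and 4.29 in Mettl14 KD, and 4.49, 6.75 and 4.94 in scramble. Both knockdown groups overlapped scramble. The log2 fold changes were -0.36 ± 0.13 (adjusted p = 0.0406) and -0.37 ± 0.13 (adjusted p = 0.0495), and -0.17 and -0.18 without scramble replicate 2 (adjusted p = 0.335 and 0.361). The call in Mettl3 KD was also lost when replicate 1, 3 or 4 of that group (adjusted p = 0.0685, 0.107 and 0.0849) or replicate 4 of Mettl14 KD (0.0533) was left out. The Mettl14 KD call was lost without any library other than scramble replicate 1 (adjusted p of 0.0532 to 0.361).

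Ifit3 did not pass in any fit, and its direction in Mettl3 KD turned on scramble replicate 2. It was at 0.490 to 0.849 CPM in Mettl3 KD, 0.270 to 0.720 in Mettl14 KD, and 0.453, 5.05 and 0.449 in scramble. Its log2 fold change in Mettl3 KD was -1.52 ± 0.87 with all libraries and 0.57 ± 0.40 without that one. Ifit3 shares 61.8% of its 31-base words with Ifit3b. Bst2 (tetherin), which holds virions at the cell surface, likewise had -0.14 and 0.66 in Mettl3 KD and -0.12 and 0.67 in Mettl14 KD, none of which passed.

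Of the ISG15 system and the other induced genes, Usp18, Xaf1 and Ifi35 were tested. Usp18, the protease that removes ISG15 and damps type I receptor signalling, was at 7.75, 7.96, 7.68 and 8.95 CPM in Mettl3 KD, 9.33, 8.73, 10.5 and 9.90 in Mettl14 KD, and 9.84, 10.3 and 9.24 in scramble. Mettl3 KD lay wholly below scramble, and Mettl14 KD overlapped it. The log2 fold change in Mettl3 KD was -0.27 ± 0.08 (adjusted p = 0.0161) and, without scramble replicate 2, -0.24 (adjusted p = 0.0519). Xaf1 and Ifi35 did not pass in either fit. Xaf1 had log2 fold changes of -0.45 in Mettl3 KD and -0.85 in Mettl14 KD with all libraries, and 0.17 and -0.23 without scramble replicate 2, so that its sign in Mettl3 KD turned. Ifi35 had -0.08 and 0.05 with all libraries, and -0.06 and 0.07 without that one.

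H2-K1 and H2-D1, the class I heavy chains of the set, fell in both knockdowns, with and without scramble replicate 2. H2-K1 was at 34.6, 29.7, 30.98 and 31.9 CPM in Mettl3 KD, 37.2, 33.5, 33.6 and 33.9 in Mettl14 KD, and 47.0, 62.2 and 44.4 in scramble. All 8 knockdown libraries lay below all 3 scramble libraries. The log2 fold change was -0.68 ± 0.11 in Mettl3 KD (adjusted p = 0.00103) and -0.56 ± 0.11 in Mettl14 KD (adjusted p = 0.00519), which places them at 62.3% and 67.7% of scramble. Without scramble replicate 2 the values were -0.52 ± 0.05 (adjusted p = 4.92e-10) and -0.40 ± 0.05 (adjusted p = 2.43e-07), at 69.6% and 75.7% of scramble.

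H2-D1, the other classical heavy chain tested here, moved less. It was at 90.9, 87.2, 86.7 and 92.4 CPM in Mettl3 KD, 95.2, 93.3, 98.5 and 95.2 in Mettl14 KD, and 99.9, 109.9 and 106.9 in scramble. The 3 groups did not overlap in any pair. The log2 fold change was -0.24 ± 0.04 in Mettl3 KD (adjusted p = 5.76e-05) and -0.14 ± 0.04 in Mettl14 KD (adjusted p = 0.00960), and without scramble replicate 2 it was -0.21 (adjusted p = 2.18e-05) and -0.11 (adjusted p = 0.0245). H2-K1 shares 22.5% of its 31-base words with other genes (16.2% with H2-D1), and H2-D1 shares 27.7% (12.9% with H2-K1).

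B2m did not follow the heavy chains. It was at 29.5, 29.4, 30.1 and 30.1 CPM in Mettl3 KD, 33.1, 33.8, 33.8 and 38.7 in Mettl14 KD, and 31.2, 49.3 and 31.5 in scramble. Mettl3 KD lay below and Mettl14 KD above the 2 other scramble libraries, with scramble replicate 2 above all. With all libraries the log2 fold changes were -0.32 ± 0.15 in Mettl3 KD and -0.09 ± 0.15 in Mettl14 KD, and neither passed (adjusted p = 0.158 and 0.722). Without scramble replicate 2 they were -0.07 ± 0.06 (adjusted p = 0.349) and 0.15 ± 0.06 (adjusted p = 0.0465), so that the sign in Mettl14 KD turned.

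**Figure D3:**
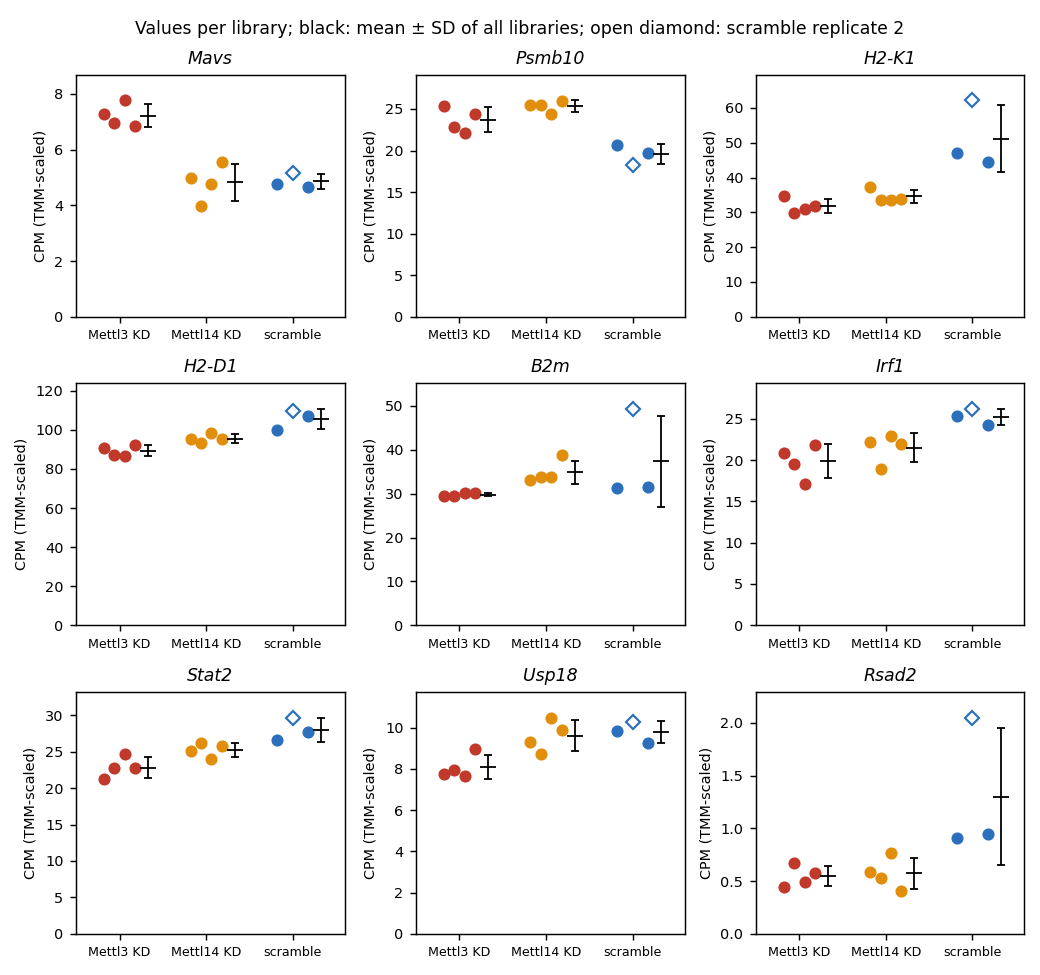
CPM per library for the 9 genes Mavs, Psmb10, H2-K1, H2-D1, B2m, Irf1, Stat2, Usp18 and Rsad2 in Mettl3 KD (n = 4), Mettl14 KD (n = 4) and scramble (n = 3), with axes from 0. Points are libraries, the open diamond is scramble replicate 2, and black bars are the mean ± SD of all libraries of the group. For H2-K1 all 8 knockdown libraries sit below all scramble libraries, and for Mavs the 4 Mettl3 KD libraries sit above all others.

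Other class I heavy chain genes were looked at after the values of H2-K1 and H2-D1 had been seen. They were picked by name and are not the whole family, as H2-T10 is not among them. Of 10 such genes, these 2 included, 9 were tested, and H2-T24 did not pass the filter. In Mettl3 KD 7 were lower and none higher, and in Mettl14 KD 6 were lower and none higher, with the same counts in both fits. Beside these stand the 15.8% and 10.8% of all genes that were lower. H2-T23, which presents leader peptides of other class I chains to natural killer cells, averaged 2.42 CPM in Mettl3 KD, 2.32 in Mettl14 KD and 5.77 in scramble, or 4.30 in scramble without replicate 2. Its log2 fold changes were -1.24 ± 0.26 and -1.30 ± 0.26, and -0.83 and -0.89 without that library (adjusted p = 0.00321, 0.00422, 9.67e-05 and 7.92e-05).

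H2-Q4, a non-classical chain, had log2 fold changes of -0.50 ± 0.08 in Mettl3 KD and -0.41 ± 0.08 in Mettl14 KD (adjusted p = 6.86e-05 and 0.000867), and -0.39 and -0.30 without scramble replicate 2. H2-Q6 and H2-Q7 were also lower in both, with sizes that rested in part on that library. H2-Q6 had few counts, at 0.715 CPM in Mettl3 KD, 0.629 in Mettl14 KD and 1.26 in scramble without replicate 2. It had -1.77 ± 0.49 in Mettl3 KD and -1.95 ± 0.50 in Mettl14 KD (adjusted p = 0.0197 and 0.0201, edgeR). Without scramble replicate 2 it had -0.82 and -0.996 (adjusted p = 0.0239 and 0.0109). H2-Q7 had -0.86 and -0.81, and -0.52 and -0.47 without it. H2-M3, which presents formylated peptides, was lower in Mettl3 KD (-0.37 ± 0.11, adjusted p = 0.0178) and did not pass in Mettl14 KD (-0.10 ± 0.11, adjusted p = 0.571), with -0.36 and -0.09 without scramble replicate 2. H2-T22 and H2-Q10 did not pass in either knockdown or fit. H2-T22 was at -0.06 and -0.08, and at -0.01 and -0.03 without that library. H2-Q10 was at -0.54 and -0.67, and at -0.29 and -0.41 without it. Reads of these copies are hard to keep apart, since H2-Q4, H2-Q6, H2-Q7 and H2-T22 share 53.3%, 51.8%, 40.0% and 70.8% of their 31-base words with other genes, against 27.8% for H2-T23 and 4.62% for H2-M3.

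**Figure D4:**
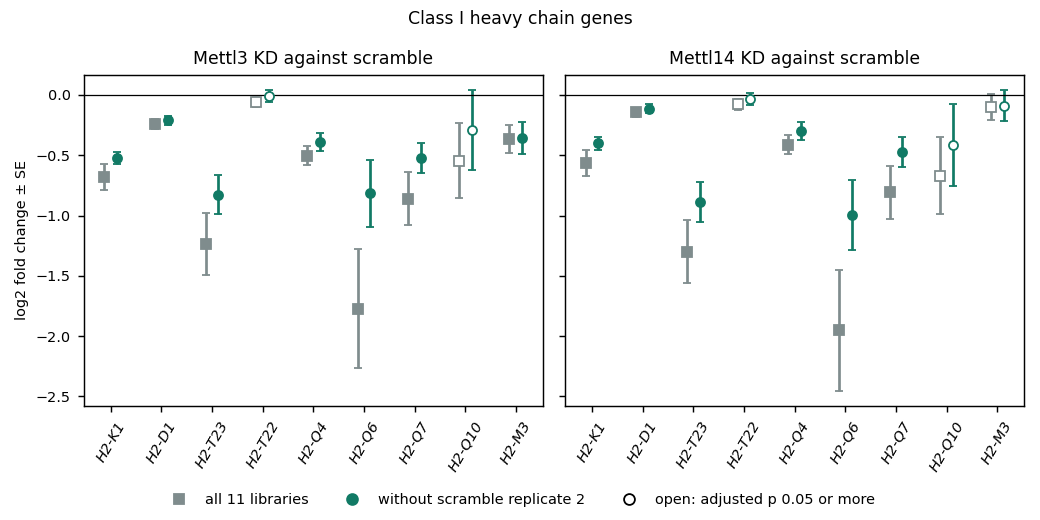
Log2 fold change ± SE of 9 class I heavy chain genes in Mettl3 KD (left) and Mettl14 KD (right) against scramble, with all 11 libraries (squares) and without scramble replicate 2 (circles). Filled markers have an adjusted p under 0.05. Of the 9 genes, 7 were lower in Mettl3 KD and 6 in Mettl14 KD in both fits, and H2-T22 lay near 0.

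Of the 6 genes of peptide supply and loading, 1 was higher (Psmb10) and 1 lower (Psmb9) in Mettl3 KD, and Psmb10 alone was called in Mettl14 KD, with medians of -0.13 and -0.12. When scramble replicate 2 was omitted only Psmb10 was called, and the medians were -0.04 and -0.03. With all libraries the shares called were 33.3% and 16.7%, beside 31.3% and 20.9% of all genes. Without scramble replicate 2 the share was 16.7% in each knockdown, beside 30.3% and 19.5% of all genes. Psmb10, the immunoproteasome subunit with trypsin-like activity, was at 25.4, 22.9, 22.1 and 24.5 CPM in Mettl3 KD, 25.5, 25.5, 24.4 and 25.9 in Mettl14 KD, and 20.7, 18.3 and 19.7 in scramble. All knockdown libraries lay above all scramble libraries. The log2 fold change was 0.28 ± 0.06 in Mettl3 KD (adjusted p = 0.00136) and 0.37 ± 0.06 in Mettl14 KD (adjusted p = 0.000132), and 0.23 and 0.33 without scramble replicate 2 (adjusted p = 0.00478 and 0.000175). Here scramble replicate 2 was the lowest library, not the highest.

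Psmb9, another immunoproteasome subunit, was at 3.18, 3.26, 3.04 and 3.56 CPM in Mettl3 KD, 3.58, 3.84, 3.60 and 3.66 in Mettl14 KD, and 3.94, 4.55 and 3.72 in scramble. Mettl3 KD lay below scramble without overlap, with a log2 fold change of -0.32 ± 0.12 (adjusted p = 0.0438) that did not pass without scramble replicate 2 (-0.23, adjusted p = 0.211). That call was also lost without scramble replicate 1, without Mettl3 KD replicate 1, 2 or 3 and without Mettl14 KD replicate 1, 3 or 4 (adjusted p of 0.0511 to 0.0987). Its promoter window overlaps that of Tap1 by 275 bases on the other strand. Psmb8, Tap1, Tap2 and Tapbp did not pass against scramble, with log2 fold changes between -0.28 and -0.03 in Mettl3 KD and between -0.31 and -0.06 in Mettl14 KD. Without scramble replicate 2 these ranges were -0.14 to 0.07 and -0.14 to 0.01, and none of the 4 passed.

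The constitutive proteasome subunits that the immunoproteasome ones replace did not fall while Psmb10 rose. Psmb6 averaged 76.3 CPM in Mettl3 KD, 73.2 in Mettl14 KD and 62.0 in scramble, with log2 fold changes of 0.30 ± 0.06 and 0.24 ± 0.06 (adjusted p = 0.00217 and 0.0151), and 0.22 and 0.16 without scramble replicate 2, which also passed. Psmb5 had 0.24 ± 0.06 and 0.18 ± 0.06 (adjusted p = 0.00338 and 0.0342), and the Mettl14 KD value of Psmb5 did not pass without scramble replicate 2 (0.14, adjusted p = 0.116). Psmb7, the counterpart of Psmb10, did not pass with all libraries (0.25 and 0.30, adjusted p = 0.0939 and 0.0624) and passed without scramble replicate 2 (0.12 and 0.18, adjusted p = 0.0374 and 0.00490).

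Set against each other, the knockdowns differed in 1 of the 28 genes: Mavs was higher in Mettl3 KD than in Mettl14 KD and none was lower (edgeR). Of all genes tested, 3.66% were higher and 4.44% lower (8.1% in either direction). At an unadjusted p under 0.05 the counts were 1 higher and 3 lower, beside 1521 and 1587 of all 14133 genes (edgeR). DESeq2 called 0 genes of the set lower, and limma-voom with quality weights called 3 lower. Mavs had a log2 fold change of 0.58 ± 0.10 (adjusted p = 0.000634), 1.49 times the level of Mettl14 KD.

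Scramble replicate 2 is in neither group of this comparison, but the fit shares 1 estimate of the spread over all groups. Without it, 2 genes were higher and 4 lower, beside 7.22% and 7.62% of all genes (14.8% in either direction). Mavs and Tap1 (0.21 ± 0.07, adjusted p = 0.0376) were higher. Stat2 (-0.15, adjusted p = 0.0427), Usp18 (-0.25, adjusted p = 0.0233), B2m (-0.23 ± 0.05, adjusted p = 0.000441) and H2-D1 (-0.10, adjusted p = 0.0253) were lower. Tap1 was at 13.7, 13.1, 14.1 and 14.2 CPM in Mettl3 KD, 10.6, 13.5, 11.6 and 11.9 in Mettl14 KD, and 12.3, 18.3 and 13.8 in scramble, so the knockdown groups overlapped. B2m did not overlap between them, and neither did H2-D1, while Stat2 and Usp18 did. H2-K1 was at -0.12 ± 0.05 and did not pass (adjusted p = 0.0718).

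Around the set, 141 other pathway genes were listed and 140 had a row. None of the interferon genes was tested, and of the 96 other genes tested 11 were higher and 26 lower in Mettl3 KD, and 8 and 16 in Mettl14 KD. When scramble replicate 2 was omitted these counts were 14 and 16, and 6 and 11. With all libraries the share called in either direction was 38.5% in Mettl3 KD and 25% in Mettl14 KD, beside 31.3% and 20.9% of all genes. Without scramble replicate 2 it was 31.2% and 17.7%, beside 30.3% and 19.5% of all genes.

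Of 20 receptor and signalling genes, 18 were tested (edgeR). In Mettl3 KD 1 was higher and 5 lower, and in Mettl14 KD 0 and 4. The shares called were 33.3% and 22.2%, beside 31.3% and 20.9% of all genes. At an unadjusted p under 0.05, 0 were higher and 6 lower in Mettl14 KD (edgeR), beside 2351 and 2386 of all 14133 genes. When scramble replicate 2 was omitted, 3 were called higher and 3 lower in Mettl3 KD, and 1 and 2 in Mettl14 KD, so that the excess of lower calls in Mettl3 KD was gone. Ifngr1, the ligand-binding chain of the interferon gamma receptor, averaged 25.5 CPM in Mettl3 KD, 25.9 in Mettl14 KD and 29.9 in scramble, with log2 fold changes of -0.23 ± 0.05 and -0.21 ± 0.05 (adjusted p = 0.00147 and 0.00506) that passed in both fits. Irf2bpl fell by 0.38 and 0.30 on the log2 scale (adjusted p = 8.65e-05 and 0.00115), and by 0.31 and 0.23 without scramble replicate 2. Irf2bp2, a corepressor partner of IRF2, had -0.14 in Mettl3 KD (adjusted p = 0.00807) and -0.11 without scramble replicate 2 (adjusted p = 0.01499), and Irf2bp1 had -0.16 in Mettl14 KD (adjusted p = 0.0250), which did not pass without scramble replicate 2 (adjusted p = 0.196). Ifngr2, the signalling chain of the gamma receptor, was higher in Mettl3 KD than in Mettl14 KD, at 16.9 and 14.5 CPM (0.22 ± 0.06, adjusted p = 0.0303).

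Of 28 further sensing genes, 21 were tested, with 1 higher and 3 lower in Mettl3 KD and 1 and 2 in Mettl14 KD. These shares of 19% and 14.3% lay below the 31.3% and 20.9% of all genes. When scramble replicate 2 was omitted, 1 was called higher and 1 lower in Mettl3 KD, and 0 and 1 in Mettl14 KD (edgeR). At an unadjusted p under 0.05, that fit had 1 higher and 3 lower in Mettl14 KD, beside 2192 and 2212 of all 14316 genes. Ticam1 (TRIF), the adaptor of the endosomal receptor Tlr3, had log2 fold changes of -0.28 ± 0.07 and -0.30 ± 0.07 (adjusted p = 0.00428 and 0.00360), which passed in both fits. Tlr3 averaged 0.279 CPM in Mettl3 KD, 0.342 in Mettl14 KD and 0.724 in scramble and passed only with scramble replicate 2 (adjusted p = 0.00705 and 0.0366, against 0.0533 and 0.201 without it). Rnaseh2b, a subunit of the enzyme that clears RNA from DNA, was higher, at 0.31 ± 0.08 and 0.25 ± 0.08 (adjusted p = 0.00492 and 0.0267); in Mettl14 KD it did not pass without that library (adjusted p = 0.0504).

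Of 55 other interferon-stimulated genes, 35 were tested, with 3 higher and 12 lower in Mettl3 KD and 2 and 6 in Mettl14 KD. With scramble replicate 2 left out the counts were 3 and 7, and 1 and 4. With all libraries the shares called were 42.9% and 22.9%, beside 31.3% and 20.9% of all genes. Without scramble replicate 2 they were 28.6% and 14.3%, beside 30.3% and 19.5% of all genes. Isg20, a nuclease that degrades viral RNA, averaged 21.2 CPM in Mettl3 KD, 23.01 in Mettl14 KD and 27.3 in scramble, with log2 fold changes of -0.36 ± 0.06 and -0.25 ± 0.06 (adjusted p = 8.34e-05 and 0.00469). Ifitm2, which blocks viral fusion, had -0.27 ± 0.05 and -0.22 ± 0.05 (adjusted p = 0.000301 and 0.00341). Slfn9 had -0.17 ± 0.03 and -0.15 ± 0.03 (adjusted p = 0.000546 and 0.00304). These 3 passed in both knockdowns with and without scramble replicate 2.

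Of 21 other class I presentation genes with a row, 19 were tested, with 4 higher and 6 lower in Mettl3 KD and 3 and 4 in Mettl14 KD, and 4 and 5, and 2 and 4, without scramble replicate 2. All but 1 of the lower ones in Mettl3 KD were heavy chains. With all libraries the shares called were 52.6% and 36.8%, beside 31.3% and 20.9% of all genes. Without scramble replicate 2 they were 47.4% and 31.6%, beside 30.3% and 19.5% of all genes. Calr, a chaperone of the peptide-loading complex, averaged 870 CPM in Mettl3 KD, 877 in Mettl14 KD and 776 in scramble (0.17 ± 0.04 and 0.18 ± 0.04, adjusted p = 0.00141 and 0.00133). Erap1, the aminopeptidase that trims class I peptides, had 0.20 ± 0.05 and 0.23 ± 0.05 (adjusted p = 0.00237 and 0.00171), and both genes passed in both fits. Pomp, which assembles the immunoproteasome, and Tapbpl, a second peptide editor, were lower in Mettl3 KD than in Mettl14 KD, at -0.12 ± 0.03 and -0.22 ± 0.06 (adjusted p = 0.0167 and 0.0194).

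Among markers of other cells, Cd14, an endotoxin co-receptor that the leukocyte list holds, differed between the groups. It averaged 25.7 CPM in Mettl3 KD, 38.5 in Mettl14 KD and 58.9 in scramble without replicate 2, and the 19 leukocyte markers summed to 29.9 to 31.3, 41.2 to 44.3, and 62.8 and 65.2 CPM in those libraries. Of the 19 markers, 10 had at most 3 counts in each of these 10 libraries, Cd3e and S100a8 at 0 among them, and Coro1a was next to Cd14 in abundance (1.497 CPM in Mettl3 KD, 1.503 in Mettl14 KD and 1.40 in those scramble libraries). The pan-leukocyte gene Ptprc averaged 0.301, 0.241 and 0.293 CPM in the same 3 groups. The order of the Cd14 levels ran with that of H2-K1 and H2-D1, and its part in the result was not tested.

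The m6A consensus GGACT was counted in the longest reference transcript of each gene. The median was 1.38 sites per kilobase over the 28 tested genes and 1.02 over 13731 tested genes with a transcript. H2-K1 held 3 sites, H2-D1 4, B2m 1, Mavs 3, Psmb10 3 and Irf1 5. The presence of these letters does not show methylation, which was not measured here.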

How the data were processed

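Messenger RNA of 11 aTC1-6 libraries was sequenced from stranded libraries, per the labels' protocols. The authors deposited 1 table of estimated counts per Ensembl gene, which was not scaled to a common total. Per the submitters' processing notes, kallisto was used (version not given in the sources used here, nor are build, annotation, reagent and read length). The expected counts, 11.6% of them not whole, were rounded. Rows without a symbol held 0.518% of counts and stayed in the fit.

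Groups came from the titles. All 11 libraries entered 1 edgeR 4.0.16 quasi-likelihood fit in R 4.3.3 (TMM, robust, filterByExpr with a minimum count of 10, 8 residual degrees of freedom), adjusted by Benjamini-Hochberg over all genes at 0.05. A ± gives the SD of CPM values or the SE of a log2 fold change. The common biological coefficient of variation was 4.38%. The script was tested on simulated data. Nothing in the labels tells whether replicates came from separate cultures: the p-values reflect the spread among these libraries, possibly a technical one. Every pair of replicates differed beyond sampling noise, with the lowest chi-square per degree of freedom at 2.1.

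Alternatives were leaving out each library, other scalings, filters of 0 or 50 counts, DESeq2 1.42.0, limma-voom (limma 3.58.1), fits on 2 groups, a threshold of 0.01 and a replicate block. Genes and lists were chosen with earlier results of these data known. Every gene of the set called in any comparison, with or without scramble replicate 2, is given in every library; from each other list the 3 called genes with the smallest adjusted p are named. H2-T23, H2-Q6, H2-Q7, H2-M3, H2-T22, H2-Q10, Psmb5 to Psmb7, Ptprc, Cd14, Irf3, Irf7, Irf9, Ifit3 and Bst2 fall outside that rule and were named after their values were seen. Transcripts for lengths, 31-base words and GGACT counts were GENCODE's for GRCm38. Shared words were counted between the longest transcript and all transcripts of other genes.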

Additional observations from a re-analysis of the deposited data

Results flagged for a closer look

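In 30 groups of 4 libraries tested for a library far from the rest, 3 stood out, and chance alone gives about 1 in 20. H2-K1 in Mettl14 KD replicate 1 was at 37.2 CPM, above the other 3 libraries of that group and still below every scramble library. B2m in Mettl14 KD replicate 4 was at 38.7 CPM, above the other 3. The total of Mettl14 KD replicate 2 was 20944085 estimated counts, below the other 3. One gene of the set differed between the knockdowns themselves: the log2 fold change of Mavs in Mettl3 KD against Mettl14 KD was 0.58, higher in 4 of 4 Mettl3 KD libraries (adjusted p = 0.000634, edgeR).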

How the results depend on the processing

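In Mettl3 KD against scramble, Mavs, Psmb10, Irf1, Stat2, H2-K1 and H2-D1 kept their direction and call in each of the 11 fits without 1 library and in each of 9 other alternatives. So did Psmb10, H2-K1 and H2-D1 in Mettl14 KD against scramble, and Mavs in Mettl3 KD against Mettl14 KD. Leaving out 1 library at a time gave, in Mettl3 KD against scramble, 4 to 9 genes of the set and 16 to 25 pathway genes lower. Of all genes, 1900 to 2190 were lower there. In Mettl14 KD against scramble these fits gave 1 to 2 genes of the set higher and 2 to 7 lower, and 5 to 10 pathway genes higher. Of all genes, 1061 to 1510 were higher and 1215 to 1581 lower there. In Mettl3 KD against Mettl14 KD these fits gave 278 to 1034 of all genes higher and 414 to 1091 lower. There 1 to 2 genes of the set were higher and 0 to 4 lower, and 0 to 4 pathway genes were higher and 1 to 4 lower. The lowest count of the set in Mettl3 KD and in Mettl14 KD, and the highest counts in Mettl3 KD against Mettl14 KD, came without scramble replicate 2. The log2 fold change of B2m in Mettl14 KD against scramble, -0.20 to 0.15 when 1 library was left out, reversed to 0.15 without scramble replicate 2 and to 0.10 with limma-voom quality weights; the cause was not tested.

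With no low-count filter, 14 genes of the set were lower in Mettl3 KD and 13 in Mettl14 KD against scramble. Over the 9 other alternatives, 1466 to 2292 of all genes were lower in Mettl3 KD and 909 to 1714 in Mettl14 KD. The genes tested differ with the filter, so no share of all genes is set beside the count of a single fit. The fit with no filter takes in the 16 genes of few counts. Together they held 514 counts in scramble replicate 2, 42 to 60 per Mettl3 KD library and 43 to 59 per Mettl14 KD library. It was not run without scramble replicate 2, so no fall of these genes is drawn from it. In the same fit 27 pathway genes were lower in Mettl14 KD. Between the knockdowns, 1 gene of the set and 4 pathway genes were lower in Mettl3 KD than in Mettl14 KD. DESeq2 called 5 genes of the set and 17 pathway genes lower in Mettl3 KD, and 0 pathway genes higher in Mettl3 KD against Mettl14 KD. Limma-voom called 3 of the set lower in Mettl14 KD; between the knockdowns it called 980 of all genes higher and 1058 lower, 2 of the set higher and 3 lower, and 3 pathway genes higher. The fit of only 2 groups gave 5 pathway genes higher in Mettl14 KD; between the knockdowns it gave 1068 of all genes higher and 1119 lower, 2 of the set higher and 4 lower, and 5 pathway genes higher and 4 lower. A minimum count of 50 gave 1 gene of the set lower between the knockdowns. At an adjusted p under 0.01, Mettl3 KD against scramble had 1335 genes higher and 1466 lower, 5 of the set lower, and 6 pathway genes higher and 12 lower. At that threshold Mettl14 KD against scramble had 694 genes higher and 909 lower, 2 of the set lower, and 2 pathway genes higher and 8 lower, and Mettl3 KD against Mettl14 KD had 187 higher and 292 lower, with 0 pathway genes in either direction. The causes were not tested.

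Libraries with the same replicate number did not deviate together: their correlations ran from -0.07 to 0.0487, from -0.118 to -0.0116 and from -0.0467 to 0.0674 in the 3 comparisons, so the numbers were not taken to pair the samples. A replicate block gave 2 genes of the set higher and 9 lower in Mettl3 KD, 1 and 5 in Mettl14 KD, and 1 and 0 between the knockdowns. With the block 5 pathway genes were higher in Mettl14 KD, and Ifit2 in Mettl14 KD no longer passed (adjusted p = 0.0651).

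With 3 scramble libraries, 1 of them set apart, the depth limits most the 16 genes of few counts, which entered only the fit with no low-count filter. Intervals and floors cover counting error only.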
